A study of Mus musculus with 14 samples.

Results

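The genes described here encode the chains of the collagens and laminins, the proteins that form the fibres and sheets of the extracellular matrix. They were chosen by symbol: every gene of the array named as a collagen alpha chain or as a laminin alpha, beta or gamma chain was taken, without regard to its level. This gave 46 chains among 12393 genes, of which 9 were fibrillar collagen chains, 16 were basement membrane chains (6 of type IV collagen and 10 of laminin) and 21 were other collagen chains. RNA of epididymal fat, the white fat depot attached to the epididymis, was measured on 14 Affymetrix mouse arrays, 1 for each mouse. All mice were ICR mice labelled male and 3 weeks old. UC mice (n = 5) were carried by dams on a 50% food restriction and suckled by dams fed ad libitum. UU mice (n = 4) were under the 50% restriction both in utero and while suckling. CC mice (n = 5) had dams with free access to chow throughout. The labels do not say which mice of a group were littermates, and the tests take every array for an independent mouse.

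Collagens are built from 3 alpha chains wound into a triple helix, and the combination of chains defines the type. Fibrillar collagens assemble into the cables that give tissue its tensile strength. Type IV collagen and the laminins, each laminin a trimer of an alpha, a beta and a gamma chain, form the networks of the basement membrane. In fat each adipocyte is wrapped in a basement membrane, and type VI collagen, which forms beaded filaments, joins that sheet to the surrounding fibres.

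Signals are the authors' scaled array intensities, and differences are on the scale of log2(signal + 32), which understates the change of dim genes. Signals of different genes come from different probes and are not compared as amounts. With the dimmest 40% of genes removed, 28 of the 46 chains remained among the 7436 genes tested, with 7 fibrillar, 5 type IV, 6 laminin and 10 other chains. The filter threshold was a mean log2 level of 9.30. Lamc3 (9.25) and Lama3 (9.28) lay just below it, and Col25a1 (9.36) and Col2a1 (9.51) just above. A gene is called changed at a Benjamini-Hochberg adjusted p under 0.05 in a limma model over all tested genes and all 14 arrays.

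The arrays did not carry the same mixture of tissue. Epididymal epithelium markers were low in 4 arrays, UC replicates 2 and 5 and CC replicates 2 and 4: Gpx5, a glutathione peroxidase secreted by that epithelium, was at 409.6 to 1155.1 there and at 5710.8 to 69623.9 in the other 10 arrays. Lcn5, an epididymal retinoic acid-binding protein, was at 13.9 to 166.5 in these 4 and at 4020.6 to 25325.3 in the others. The level of liver markers (5 of 6 measured) was 12.53 in UC replicate 2 and at most 9.96 in any other array. That of skeletal muscle markers (6 of 6 measured) was 11.61 in CC replicate 2, 11.33 in CC replicate 5 and at most 8.99 in any other array. UC replicate 5 and CC replicate 2, both labelled male, had Xist signals of 5642.5 and 3980.6, against at most 1324.3 in the other 12 arrays, and their Y-linked Eif2s3y was at most 58.6, against at least 1234.9. The log2 ratio of 3' over 5' control probe sets, a sign of RNA degradation, was highest in 3 arrays, namely UU replicate 3 and UC replicates 1 and 4, with 1.59 to 2.10, while the remaining 11 had 0.40 to 1.08. The level of adipocyte markers (6 of 8 listed were measured) was 14.2 to 15.1 in UC arrays, 13.1 to 14.1 in UU arrays and 14.15 to 14.97 in CC arrays. That of macrophage markers (6 of 6 measured) was 12.29 to 13.67 in UC arrays, 10.87 to 11.96 in UU arrays and 12.30 to 13.56 in CC arrays. Both were lower in every UU array than in every other array, and their part in the UU differences below was not tested. In bulk tissue, fewer cells of a type and less RNA per cell cannot be told apart.

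The first question was whether restriction in utero alone left a mark on the matrix chains. In UC against CC, 0 of 28 chains were called by limma, and 0 of all 7436 genes (0%), and 0 chains had an unadjusted p under 0.05, against 8.75% of all genes (4.76% higher and 3.99% lower). The median log2 difference over the chains was -0.07, beside -0.003 over all genes, with 12 of 28 above 0 (49.5% of all genes) and 16 below. The chain of smallest p was Lamb2, a laminin beta chain of synapses, kidney and muscle, which averaged 775 ± 91 in UC mice and 1114 ± 318 in CC mice (± SD, n = 5 each; log2 difference -0.47 ± 0.23 SE, adjusted p = 0.58). No chain separated all UC arrays from all CC arrays, while 1.01% of all genes did so upwards and 0.78% downwards. The median was 0.06 over the fibrillar chains and -0.16 over the basement membrane chains. All 6 laminin chains tested lay below 0 (median -0.21), from -0.07 for Lama2 to -0.56 ± 0.33 for Lama4, where 50.5% of all genes were below 0.

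UU against CC asks about restriction that went on through suckling. Again 0 of 28 chains and 0 of 7436 genes (0%) were called by limma. The smallest adjusted p among all genes was 0.0532, and that of the chains was 0.102, for Col6a3. At an unadjusted p under 0.05, 12 chains were lower and 1 was higher, beside 7.75% of all genes lower and 8.63% higher. The median over the chains was -0.26, beside 0.05 over all genes, and 8 of 28 chains were above 0 (55.4% of all genes) and 20 below (44.6%). In 6 chains every UU array lay below every CC array (Col6a3, Col4a2, Col5a3, Col14a1, Col1a1 and Col1a2), which 3.63% of all genes did, and in 0 above, as in 4.71% of all genes.

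UC against UU sets mice suckled by freely fed dams beside mice kept restricted. Here 2 of 28 chains were called, both higher in UC: Col5a3 and Col6a3. Over all genes 60 of 7436 were called, or 0.807%, of which 51 were higher (0.686%) and 9 lower (0.121%) in UC. This count was 0 to 108 when 1 array was left out in turn (0 without UC replicate 2, UC replicate 4 or UU replicate 1), 3 without the Xist arrays, 1 without the arrays low in epididymal markers and 2 without those of highest 3'/5' ratio. The median log2 difference was 0.21 over the chains and -0.06 over all genes, and 20 of 28 chains were above 0 (43.3% of all genes) and 8 below (56.7%). At an unadjusted p under 0.05, 8 chains were higher in UC and 3 lower, beside 9.17% and 8.74% of all genes. All UC arrays lay above all UU arrays in 6 chains (Col5a3, Col6a3, Col4a2, Col4a1, Col6a1 and Col5a1), which 3.5% of all genes did, and below them in 1, which 2.5% did. The comparisons share the UU or the CC arrays, so a chain low in UU enters both of the comparisons with UU.

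**Figure D1:**
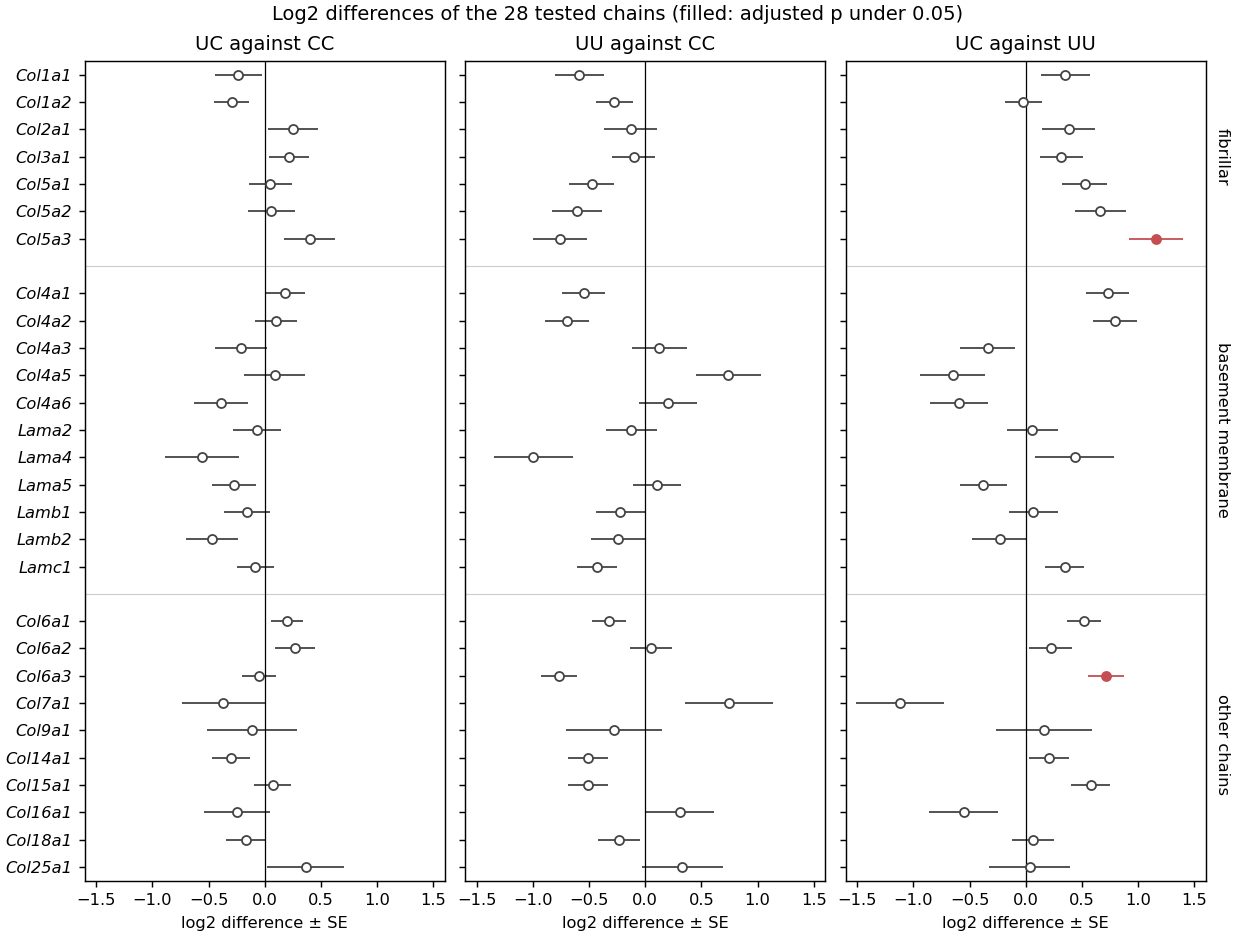
Log2 differences (x axis, log2(signal + 32) scale) of the 28 tested chains in 3 comparisons. Points are limma coefficients with bars of ± 1 SE, grouped by class, and filled points have an adjusted p under 0.05. Only Col5a3 (1.16) and Col6a3 (0.72) are filled, both in UC against UU, and the 7 fibrillar chains all lie below 0 in UU against CC.

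Col5a3 encodes the alpha3 chain of type V collagen, a minor fibrillar collagen that is built into type I fibrils and limits their width. Col5a3 is on chromosome 9, and Col6a3, the large alpha3 chain of type VI collagen whose C-terminal fragment is released as endotrophin, is on chromosome 1. The bases that precede the annotated start of each, the chains called here, are shown from RefSeq (GRCm38.p6), on the strand of the gene, for Col5a3 at chr9:20815118-20815317 (minus strand) and for Col6a3 at chr1:90844002-90844221 (minus strand). Capitals mark matches on either strand to CCAAT, a promoter element named for these letters, to GGGCGG, the element bound by Sp-family factors, and to TATAAA, the core of the TATA element.
Col5a3: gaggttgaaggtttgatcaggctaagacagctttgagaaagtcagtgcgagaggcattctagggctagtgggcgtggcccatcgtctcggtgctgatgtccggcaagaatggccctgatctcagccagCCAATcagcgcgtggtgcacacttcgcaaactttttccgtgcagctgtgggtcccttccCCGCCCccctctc
Col6a3: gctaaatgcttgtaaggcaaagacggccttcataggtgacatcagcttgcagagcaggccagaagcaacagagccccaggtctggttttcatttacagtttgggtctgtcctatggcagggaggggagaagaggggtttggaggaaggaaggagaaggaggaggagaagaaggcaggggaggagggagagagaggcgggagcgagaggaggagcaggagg
The Col5a3 window of 200 bases held 1 CCAAT match and 1 GGGCGG match, which do not overlap and which 28.4% and 24.6% of 32851 RefSeq promoter windows of the same length hold. The Col6a3 window of 220 bases, rich in runs of purines, held 0 matches to any of the 3 motifs. Of the 46 chains, 32 had an entry in the promoter table.

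Among the fibrillar chains, Col5a3 had the largest difference between UC and UU. Its signals were 13400.6, 15003.1, 10900.1, 21849.4 and 14783.4 in UC arrays, 5101.9, 8528.8, 5774.8 and 7582.1 in UU arrays, and 8688.4, 17691, 9371.9, 12659.6 and 9697.2 in CC arrays. Every UU array was below every array of both other groups, and the highest UU array (8528.8) came close to the lowest CC array (8688.4). The log2 difference was 1.16 ± 0.24 in UC against UU (2.23-fold, adjusted p = 0.0358), -0.76 ± 0.24 in UU against CC (adjusted p = 0.166) and 0.40 ± 0.23 in UC against CC (adjusted p = 0.631). A second, much dimmer probe set of Col5a3 (mean log2 level 7.06, against 13.4) gave 0.24 in UC against UU and 0.91 in UU against CC. Without the 2 arrays with Xist signal the UC against UU difference was 1.16 (adjusted p = 0.0532), without the 4 arrays low in epididymal markers 1.15 (adjusted p = 0.125), and without the 3 arrays of highest 3'/5' ratio 0.95 (adjusted p = 0.183). The call was also lost without any 1 of the 4 UU arrays, without CC replicate 1 or without UC replicate 2, 4 or 5, 8 of the 14 arrays in all (adjusted p 0.052 to 0.145).

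The partner chains of type V, Col5a1 and Col5a2, were below both other groups on average in UU without passing the test. Col5a1, the chain present in most type V molecules, had signals of 11671.6, 9795.9, 10741.4, 11199.1 and 17728.3 in UC and 8051.1, 8326.1, 8769.6 and 8055.2 in UU, while CC arrays had 8218.4, 14491.9, 10188.1, 15484.7 and 10936.8. The 4 UU arrays were tightly grouped and all below the UC arrays, and CC replicate 1 fell inside their range. The log2 difference was 0.53 ± 0.20 in UC against UU (adjusted p = 0.202) and -0.48 ± 0.20 in UU against CC (adjusted p = 0.26). Its 2 further probe sets gave -0.70 and -1.50 in UU against CC. Col5a2 averaged 21709 ± 3820 in UC, 13911 ± 3874 in UU and 21019 ± 4767 in CC (log2 difference 0.67 ± 0.22 in UC against UU, adjusted p = 0.155, and -0.61 ± 0.22 in UU against CC, adjusted p = 0.21), and its second probe set gave -0.75 in UU against CC.

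Type I collagen, the main fibre of connective tissue, consists of Col1a1 and Col1a2 chains. Col1a1 was at 26188.6, 34029.9, 22682 and 35577.4 in UU arrays and at 43258.3, 40388.7, 48716, 43116.6 and 43869.7 in CC arrays. The UU arrays were all below the CC arrays, while the UC arrays, from 24313.7 to 51130 with a median of 39858, spanned both. The UU against CC difference was -0.59 ± 0.22 (adjusted p = 0.212), but the second Col1a1 probe set, also above the filter, gave 0.39, so the direction depends on the probe set. Col1a2 was at 41994.4, 42592.1, 39254.6 and 43050.4 in UU arrays and at 50124.1, 51003.5, 46616.6, 55554.8 and 49473.9 in CC arrays. These groups did not overlap, and both Col1a2 probe sets gave a like difference of -0.28 and -0.27, with an adjusted p of 0.399 for the brighter. Between UC and UU, Col1a2 gave -0.02 ± 0.16, with UC arrays from 32030.5 to 57345.3, and its second probe set gave 0.19.

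Col3a1, the chain of type III collagen that accompanies type I in soft tissue, averaged 109478 ± 22981 in UC, 87183 ± 16056 in UU and 93482 ± 13596 in CC. The 3 groups overlapped, and the differences of 0.32 ± 0.19 in UC against UU (adjusted p = 0.386) and -0.10 ± 0.19 in UU against CC (adjusted p = 0.801) did not pass the test. Over the 7 fibrillar chains tested the median difference of UU against CC was -0.48 with 7 of 7 below 0, and that of UC against UU 0.38 with 6 of 7 above 0. Taken as the mean over these chains of the log2 level minus the CC mean, the fibrillar level was -0.20 to 0.41 in UC arrays (mean 0.06 ± 0.23 SD), -0.63 to -0.25 in UU arrays (-0.42 ± 0.16) and -0.20 to 0.25 in CC arrays. The UU arrays lay below the arrays of both other groups. The median in UU against CC was -0.23 without the 4 arrays low in epididymal markers and -0.14 with the mean of all probe sets of a gene. The level of fibroblast markers (7 of 8 measured, among them the proteoglycan genes Dcn and Lum) was 12.6 to 13.4 in UC arrays, 12.3 to 12.6 in UU arrays and 12.6 to 13.4 in CC arrays. In UU against CC, 6 of these 7 markers lay below 0 and 1, Pdgfra, above it. The part of the fibroblast marker level in the fibrillar difference was not tested.

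**Figure D2:**
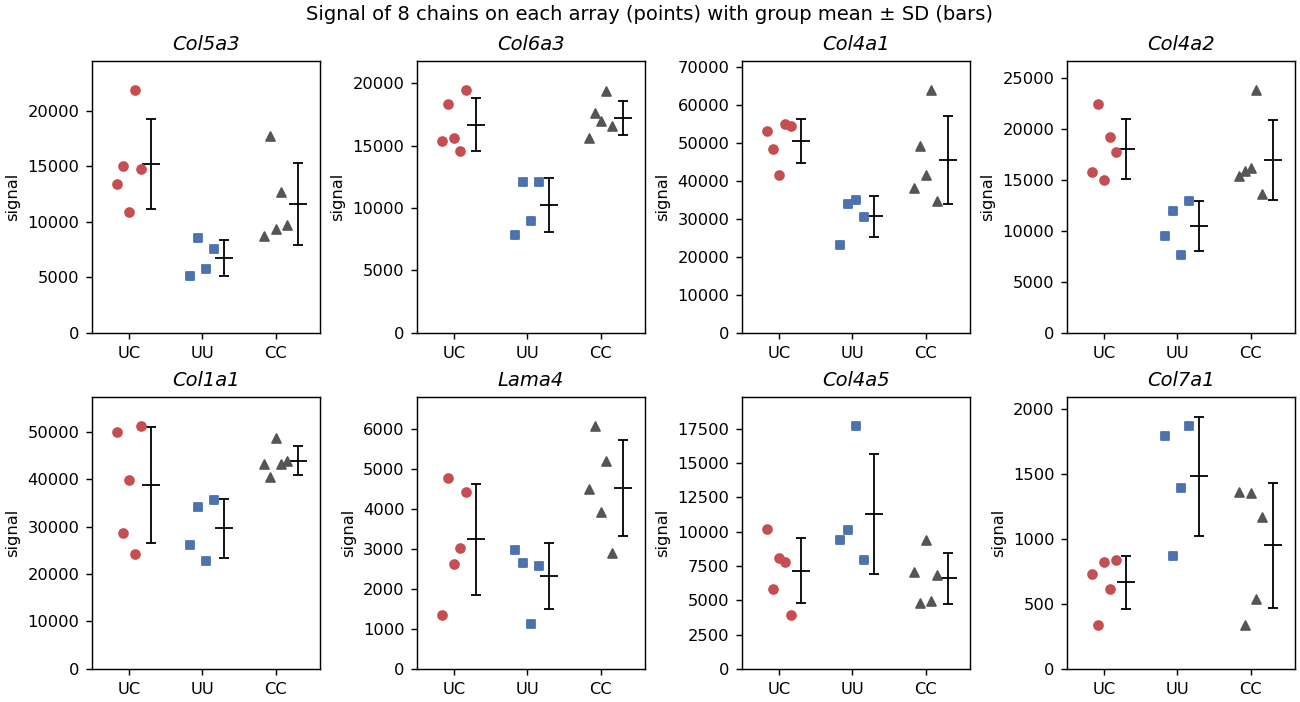
Signals of 8 chains (y axes, each from 0) on every array, with UC left, UU in the middle and CC right. Points are arrays and bars give the group mean ± SD. The UU points lie below all UC points for Col5a3, Col6a3, Col4a1 and Col4a2, and above all UC points for Col7a1.

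Type VI collagen assembles from Col6a1, Col6a2 and Col6a3 chains, and 1 of these 3 chains, Col6a3, was called. Col6a3 was at 15360.7, 18384.7, 15645.1, 14551.7 and 19455.5 in UC arrays, 7828.2, 12062.3, 8971 and 12114 in UU arrays and 15608.4, 17622.5, 16967.9, 19360.7 and 16623.5 in CC arrays. All UU arrays were below all UC and CC arrays, with a gap between 12114 and 14551.7. The log2 difference was 0.72 ± 0.16 in UC against UU (1.64-fold, adjusted p = 0.0488), -0.77 ± 0.16 in UU against CC (adjusted p = 0.102) and -0.05 ± 0.15 in UC against CC (adjusted p = 0.942). The UC against UU difference was 0.66 without the 2 arrays with Xist signal (adjusted p = 0.0998), 0.59 without the 4 arrays low in epididymal markers (adjusted p = 0.225) and 0.76 without the 3 arrays of highest 3'/5' ratio (adjusted p = 0.128). Of the 14 arrays left out in turn, the call held only without UC replicate 1, and was lost for the other 13 (adjusted p 0.0522 to 0.183). Adjusted p was under 0.05 in 6 of the 30 alternative analyses for Col6a3 and in 16 of 30 for Col5a3, with the direction kept in all 30 for both.

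Col6a1 was at 31392.4, 29121.1, 24540.9, 30228.6 and 34745 in UC arrays and at 17706.8, 21439.2, 22193.5 and 22080.1 in UU arrays, with CC arrays from 21604.4 to 30350.1. The UC and UU arrays did not overlap (0.52 ± 0.15, adjusted p = 0.113). Col6a2 overlapped in all comparisons, with 33073 ± 6533 in UC, 28440 ± 6000 in UU and 27231 ± 4203 in CC, and gave 0.05 ± 0.19 in UU against CC (adjusted p = 0.909), while its second probe set, also above the filter, gave -0.18. The log2 ratio of the Col6a3 signal to the Col6a2 signal within an array was -0.97 ± 0.28 in UC, -1.47 ± 0.34 in UU and -0.65 ± 0.13 in CC (SD). The UC and UU arrays overlapped in this ratio. All UU arrays (-1.96 to -1.17) lay below all CC arrays (-0.80 to -0.44). Ratios were also formed for further chain pairs. For Col6a1 to Col6a2 the UU arrays (-0.66 to -0.23) likewise lay below the CC arrays (-0.16 to 0.10). Apart from Col4a5 to Col4a1, given below, UU and CC arrays overlapped in the remaining pairs. None of the ratios was tested.

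Within type IV collagen the differences had opposite signs, and 0 of the 5 tested chains were called. The Col4a1 and Col4a2 chains form the trimer found in nearly all basement membranes, and their genes lie head to head on chromosome 8, where the annotated genes overlap by 85 bases. Col4a1 was at 53304.8, 48428.2, 41483.5, 55127.3 and 54527.8 in UC arrays, at 23138.4, 33957.2, 35129.7 and 30623.4 in UU arrays and at 38079, 49150.4, 41503.2, 63966.9 and 34709.1 in CC arrays. Col4a2 was at 15753.4, 22436.8, 15000.8, 19277.7 and 17788.1 in UC arrays, at 9470.4, 11968.5, 7614.3 and 12957.9 in UU arrays and at 15423.5, 15941.7, 16178.4, 23827.7 and 13630.9 in CC arrays. Both chains were lower in every UU array than in every UC array, and Col4a2 also than in every CC array. The differences in UC against UU were 0.73 ± 0.19 for Col4a1 (adjusted p = 0.082) and 0.79 ± 0.20 for Col4a2 (adjusted p = 0.0731), and those in UU against CC were -0.55 ± 0.19 (adjusted p = 0.184) and -0.70 ± 0.20 (adjusted p = 0.144). The second Col4a1 probe set gave 0.60 and -0.82 in these comparisons.

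Col4a5 and Col4a6, the chains whose genes are altered in human X-linked Alport syndrome and its form with leiomyomatosis, are also head to head, on chromosome X, with 1274 bases between the annotated genes. The bases just before each start (Col4a5 at chrX:141475169-141475369, plus strand; Col4a6 at chrX:141474096-141474326, minus strand; RefSeq GRCm38.p6) are shown because Col4a5 had the opposite sign to Col4a1 and Col4a2 in both comparisons with UU, with capitals as above.
Col4a5: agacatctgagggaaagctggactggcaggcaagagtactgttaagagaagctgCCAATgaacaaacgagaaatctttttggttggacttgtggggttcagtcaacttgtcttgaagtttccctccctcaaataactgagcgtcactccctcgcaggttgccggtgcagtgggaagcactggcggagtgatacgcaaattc
Col4a6: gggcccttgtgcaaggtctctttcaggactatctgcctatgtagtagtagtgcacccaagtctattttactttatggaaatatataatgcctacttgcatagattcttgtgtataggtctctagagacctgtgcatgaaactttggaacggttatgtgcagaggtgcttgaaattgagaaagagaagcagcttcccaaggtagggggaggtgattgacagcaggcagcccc
The Col4a5 window held 1 CCAAT match, as 28.6% of promoter windows of its 201 bases do, and 0 matches to the other motifs, and the Col4a6 window of 231 bases held 0 matches to any of the 3.

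Col4a5 was at 10175.8, 5834.5, 8084, 7819.1 and 3929.8 in UC arrays, at 9387.6, 10099, 17681.9 and 7906 in UU arrays and at 7060.2, 4797.4, 9379.5, 4965.8 and 6853.8 in CC arrays. The highest signal was in UU replicate 3, the array of highest 3'/5' ratio, and the groups overlapped. The log2 difference was 0.74 ± 0.29 in UU against CC (adjusted p = 0.224), -0.65 ± 0.29 in UC against UU (adjusted p = 0.254) and 0.09 ± 0.27 in UC against CC (adjusted p = 0.947), none past the test, and the second Col4a5 probe set gave 0.01 in UU against CC. Col4a6 averaged 759 ± 269 in UC, 1125 ± 251 in UU and 983 ± 256 in CC, with -0.59 ± 0.26 in UC against UU (adjusted p = 0.248). Col4a3, a chain of the kidney filter, averaged 773 ± 179 in UC, 971 ± 117 in UU and 924 ± 290 in CC. The log2 ratio of Col4a5 to Col4a1 signals within an array was -2.88 ± 0.59 in UC (-3.78 to -2.35), -1.50 ± 0.43 in UU (-1.95 to -0.99) and -2.79 ± 0.68 in CC (-3.68 to -2.14). All 4 UU arrays were above all 10 other arrays in this ratio, which was formed after both chains' values were seen and was not tested.

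The chains were also set against the epididymal marker level of the arrays. Col4a5 was at 3929.8 to 5834.5 in the 4 arrays low in epididymal markers. In the other UC and CC arrays it was at 6853.8 to 10175.8, without overlap. In this division of the UC and CC arrays, 1 of 28 tested chains, Col4a5, was entirely lower in the low arrays, as 5.58% of all genes were. Likewise 1 of 28, Col6a3 (17622.5 to 19455.5, against 14551.7 to 16967.9), was entirely higher, as 2.35% were. Both counts are near the shares over all genes and do not set the chains apart from other genes. Below the filter, Lama1, a laminin alpha chain of epithelial basement membranes, was at 11.8 to 25.2 in the low arrays and 29.8 to 594.6 in the other 10. Col17a1, the transmembrane collagen of epithelial hemidesmosomes, was at 17.9 to 32.5 in the low arrays and 42.7 to 240.7 in the other 10. Both were named after their values were seen, and their low signals lie near or below the 32 added to each signal. The remaining chains below the filter overlapped in this division, among them Lama3 (325.4 to 506.8, against 348 to 932.6) and Lamb3 (87 to 448.9, against 70.7 to 329.4). The share of all genes below the filter that separated so is not given here. By group, Lama1 was at 11.8 to 303.1 in UC arrays, 332.2 to 587.7 in UU arrays and 12.2 to 594.6 in CC arrays. General epithelial markers (8 of 8 measured) had a level of 9.10 to 12.2 in UC arrays, 12.0 to 12.6 in UU arrays and 8.84 to 12.4 in CC arrays. All 4 UU arrays belong to the arrays rich in epididymal markers, and the fits without the 4 low arrays and with that marker level added to the model are the values that bear on it. The UU against CC difference of Col4a5 was 0.48 without the low arrays (adjusted p = 0.437) and 0.56 with the added level (adjusted p = 0.196), and its UC against UU difference was -0.31 (adjusted p = 0.621) and -0.39 (adjusted p = 0.373). With the added level, the UC against UU difference was 1.04 for Col5a3 (adjusted p = 0.0472) and 0.65 for Col6a3 (adjusted p = 0.0759).

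**Figure D3:**
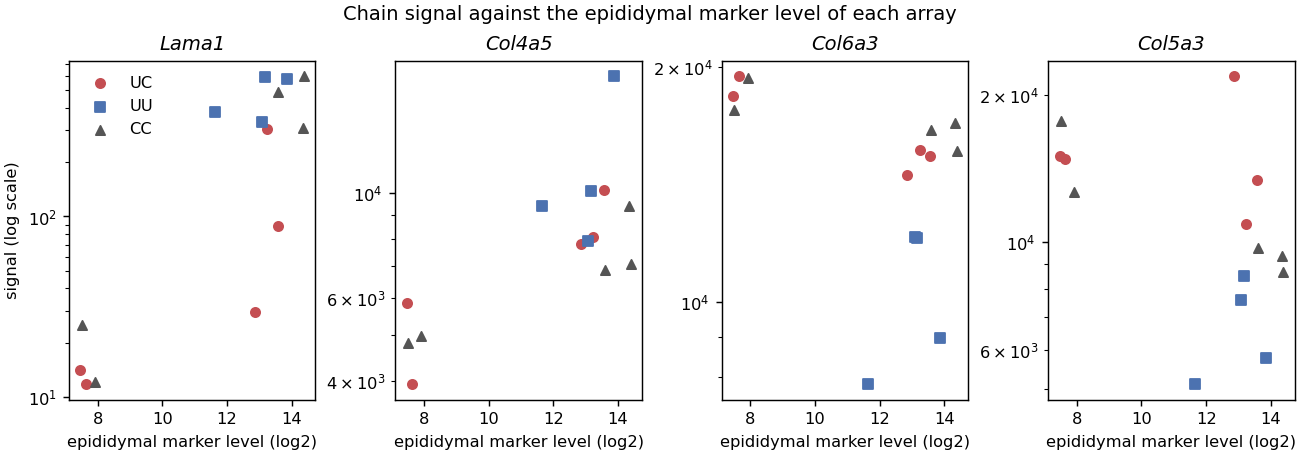
Signals of Lama1, Col4a5, Col6a3 and Col5a3 (y axes, log scale) against the epididymal marker level of each array (x axis, mean log2 level of 4 markers), 1 point for each of 14 arrays, coloured by group. The 4 UC and CC arrays at a level of 7.47 to 7.92 have the lowest Lama1 and Col4a5 signals, and the UU points are the lowest for Col6a3 and Col5a3 among the arrays at 11.6 to 14.4.

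The laminin chains gave 0 calls in the 3 comparisons. Lama4, the alpha chain of endothelial and adipocyte basement membranes, had the lowest difference of all chains in UU against CC: it was at 2982.2, 2644.3, 1120 and 2567.9 in UU arrays and at 4503.3, 6072.7, 3924.1, 5198.4 and 2913.8 in CC arrays. UU replicate 1 was above CC replicate 5, so the groups overlapped, and the difference of -0.996 ± 0.35 had an adjusted p of 0.192. In UC arrays Lama4 was at 1361.4, 4775.2, 2620.1, 3033 and 4419.9. The lowest arrays of UC and UU, UC replicate 1 and UU replicate 3, are 2 of the 3 arrays with the highest 3'/5' ratio. The second Lama4 probe set gave -0.68 in UU against CC.

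Lamc1, the gamma chain of most laminins, averaged 5498 ± 636 in UC, 4362 ± 864 in UU and 5889 ± 1196 in CC, with -0.43 ± 0.18 in UU against CC (adjusted p = 0.248) and 0.35 ± 0.18 in UC against UU (adjusted p = 0.312). Lamb1, its usual beta partner, gave -0.22 ± 0.22 in UU against CC, with 5502 ± 671 in UU and 6615 ± 1992 in CC, and its 2 dimmer probe sets gave -0.74 and -1.59. Lama2, the alpha chain of muscle and nerve basement membrane, averaged 2646 ± 332 in UC, 2566 ± 568 in UU and 2877 ± 848 in CC, with differences of -0.07 (UC against CC), -0.12 (UU against CC) and 0.06 (UC against UU). Lama5, an alpha chain of epithelial and vascular basement membranes, averaged 1043 ± 228 in UC, 1356 ± 253 in UU and 1270 ± 277 in CC, with the opposite sign to Lama4 in both comparisons with UU (-0.38 ± 0.21 in UC against UU, adjusted p = 0.355). The endothelial marker level (8 of 8 measured, among them Cdh5 and Pecam1) was 10.05 to 10.92 in UC arrays, 9.61 to 10.3 in UU arrays and 10.4 to 11.2 in CC arrays, lower in all UU than in all CC arrays, and its part in the Lama4, Lamc1, Col4a1 and Col4a2 differences was not tested.

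Over the 11 basement membrane chains the median difference of UC against CC was -0.16, that of UU against CC -0.22, and that of UC against UU 0.06 with 6 of 11 chains above 0. The sign of the UC against UU median turned in 6 of 30 alternatives (-0.22 to 0.35), and the UU against CC median was 0.11 with no filter. The 5 type IV chains had a median of 0.12 when UU was set against CC and -0.34 when UC was set against UU, and the 6 laminin chains -0.23 and 0.06. The mean level of the basement membrane class was -0.26 to -0.10 in UC arrays, -0.40 to -0.06 in UU arrays and -0.15 to 0.10 in CC arrays. All UC arrays lay within the range of the UU arrays at this level of averaging.

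**Figure D4:**
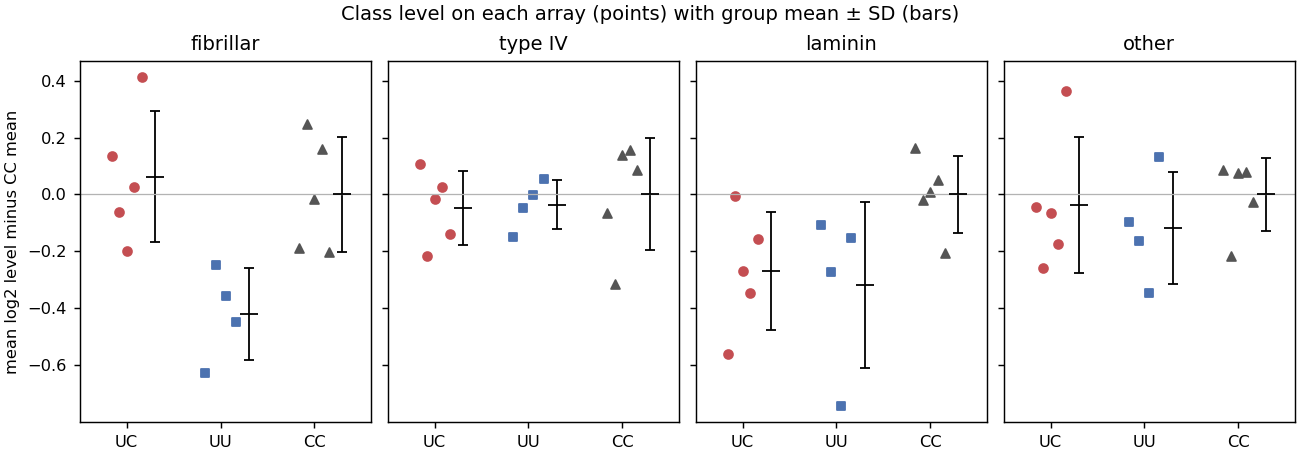
Class level of the fibrillar, type IV, laminin and other chains (y axis, mean log2 level of the tested chains minus their CC mean) on each array, with UC left, UU in the middle and CC right. Points are arrays and bars give the mean ± SD. The UU arrays lie below the others for the fibrillar chains, and the groups overlap in the other panels.

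Of the other collagen chains, Col15a1 and Col18a1, which encode basement membrane zone collagens that carry heparan or chondroitin sulfate, gave 0 calls. Col15a1 was at 6575.1, 10238.8, 8370.5, 8733.1 and 10586.7 in UC arrays, at 6017.8, 5411.6, 4834 and 7535.9 in UU arrays and at 7026.6, 8041.2, 7784.4, 9872 and 9396.3 in CC arrays. UU replicate 4 reached into the range of both other groups, and the differences were 0.58 ± 0.18 in UC against UU (adjusted p = 0.125) and -0.51 ± 0.18 in UU against CC (adjusted p = 0.184). Col18a1, the source of endostatin, averaged 3059 ± 574 in UC, 2940 ± 675 in UU and 3439 ± 592 in CC and passed the test in none. Col14a1, a collagen that coats type I fibrils, was at 3728, 3766.3, 3957.4 and 4239.7 in UU arrays and at 5119.5, 6505, 5052, 6413.2 and 5049.8 in CC arrays, without overlap (-0.51 ± 0.18, adjusted p = 0.188), and its second probe set gave -0.33.

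Col7a1, the chain of the anchoring fibrils under stratified epithelium, was the only tested chain whose UC arrays all lay below the UU arrays. It is named here after its values were seen. It was at 727.7, 340.6, 825.1, 611.9 and 838.1 in UC arrays, at 1794.5, 873.5, 1394.5 and 1868.6 in UU arrays and at 1363, 340.5, 1353.2, 535.8 and 1171.8 in CC arrays. The difference was -1.12 ± 0.39 in UC against UU (adjusted p = 0.172) and 0.75 ± 0.39 in UU against CC (adjusted p = 0.345). Without the 4 arrays low in epididymal markers, UC against UU gave -0.96 (adjusted p = 0.164) and UU against CC 0.14 (adjusted p = 0.837). The 10 other chains tested had a median UC against CC difference of -0.08, a UU against CC difference of -0.26 and a UC against UU difference of 0.18.

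The 18 chains below the filter were not tested, and no array had a signal above 1453.3 for any of them. They include Col4a4, Lama1, Lama3, Lamb3 and Lamc3 of the basement membrane, Col11a1 and Col11a2, fibrillar chains of cartilage, and 11 other chains. Their spread between arrays of a group was often wide: Col4a4 was at 49.6 to 392.5 in UC arrays, 295.6 to 611 in UU arrays and 29.7 to 545.9 in CC arrays. Col9a2, Lama1 and Col19a1, named after their values were seen, did not overlap between the UU arrays and those of another group. The share of all genes below the filter that did so is not given here. Col9a2 was at 23 to 71.1 in UU arrays and 11.9 to 20.6 in CC arrays. Lama1 was at 332.2 to 587.7 in UU arrays and 11.8 to 303.1 in UC arrays. Col19a1 was at 10.1 to 238.3 in UC arrays, 335.2 to 395.7 in UU arrays and 7.9 to 157.8 in CC arrays. Its brightest probe set gave 1.84 in UU against CC and its second 0.12. With no filter, all 46 chains had a median of 0.08 in UU against CC, beside -0.26 over the 28 that passed. The sign of the median thus changed once the dim chains were included. The median over all genes with no filter is not given here, so this change cannot be called particular to the chains.

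Further probe sets show how firmly the direction of a chain rests on the probes. The tested chains had 19 further probe sets, of which 12 gave the sign of the brightest one when UC was set against CC, 14 for UU against CC and 14 for UC against UU. Among the 15 of them above the filter the counts were 8, 12 and 11.

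Genes that process, bind or receive these chains were compared from lists written from general knowledge, but with earlier results of these data known. Of 18 tested processing enzymes and chaperones 0 were called in any comparison, and 14 were below 0 in UU against CC (median -0.15, beside 0.05 over all genes). Crtap, a partner of the prolyl 3-hydroxylase of collagen, averaged 2618 ± 528 in UU and 4380 ± 497 in CC, without overlap between the groups (-0.75 ± 0.19, adjusted p = 0.125). The lysyl hydroxylase Plod1 averaged 1157 ± 306 in UU and 1750 ± 209 in CC, also without overlap (-0.62 ± 0.22, adjusted p = 0.195). Plod3 overlapped, with 1764 ± 609 in UU and 2884 ± 551 in CC (-0.75 ± 0.26, adjusted p = 0.189). Serpinh1, the collagen chaperone HSP47, averaged 11882 ± 3488 in UC and 8057 ± 1501 in UU (0.52 ± 0.23, adjusted p = 0.255).

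Of 11 tested basement membrane partners 0 were called, and 7 were below 0 in UU against CC (median -0.24). Nid2, one of the nidogens that tie laminin to type IV collagen, averaged 3256 ± 853 in UC, 1810 ± 469 in UU and 3319 ± 655 in CC, with UU below both other groups in every array (0.83 ± 0.22 in UC against UU, adjusted p = 0.0845, and -0.88 ± 0.22 in UU against CC, adjusted p = 0.125). Nid1 averaged 21019 ± 4427 in UC and 15105 ± 2407 in UU (0.47 ± 0.19, adjusted p = 0.215). Agrn, the heparan sulfate proteoglycan agrin, was on the other side, at 1233 ± 382 in UC and 2047 ± 558 in UU (-0.73 ± 0.23, adjusted p = 0.133). Of 10 tested receptors 1 was called: Itga7, the integrin alpha chain of a laminin receptor best known from muscle, was higher in UC (2823 ± 605) than in UU (1190 ± 355), by 1.25 ± 0.22 (adjusted p = 0.0283), where 0.807% of all genes were called. This call is lost without UC replicate 2, UC replicate 4 or UU replicate 1, since 0 of all genes were called there. Itga7 gave -0.90 ± 0.22 in UU against CC (adjusted p = 0.125), and Ddr1, a collagen-binding receptor tyrosine kinase of epithelia, 0.63 ± 0.26 (adjusted p = 0.25). As a list the receptors did not follow the chains. In UU against CC, 5 were above 0 and 5 below (median 0.15), and in UC against UU 3 were above and 7 below (median -0.07).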

How the data were processed

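The authors deposited Affymetrix intensity values, unlogged, and the submitters' processing notes name GCOS 1.3 and MAS5. All arrays had a trimmed mean signal of 1500.45 to 1500.57, as scaled before deposit. Further steps of the authors are not given in the sources used here. Probe sets were named through the platform annotation, updated to RefSeq symbols, and the brightest probe set stood for each of 12393 genes. Values were transformed as log2(signal + 32), and the dimmest 40% of genes were left out. All 14 arrays entered one limma 3.58.1 model (R 4.3.3, mean-variance trend, 11 residual degrees of freedom) with 3 two-sided contrasts, and p was adjusted by Benjamini-Hochberg over 7436 genes. Precision is limited by the number of arrays, with a median SE of a log2 difference of 0.20 to 0.22. The fit was tested on simulated data. Log2 differences are given ± SE and signals as mean ± SD.

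The chains, the companion lists and the cell type markers were chosen with earlier results of these data known. The text names the tested chains of types I, III, IV, V, VI, XV and XVIII and of the laminins. It also names the 6 chains of smallest p in each comparison and up to 4 genes of each companion list and comparison. Some members of marker lists are named as well, and these are not always the brightest of their list. Lists were described by counts and medians without a test. The labels do not say whether replicate numbers pair the samples, and the main fit did not pair them. In 13 pairs of arrays with the same number the deviations from group means correlated at -0.32 to 0.49, with 6 pairs over 0.1. Between UC and CC, replicates 1, 2 and 3 correlated at 0.425, 0.483 and 0.486, and replicates 4 and 5 at -0.109 and -0.324. Alternatives covered the pseudocount, filter, normalization, probe set rule, variance model, array weights, groups in the fit, replicate block, arrays left out and covariates. Figures were drawn with matplotlib 3.10.9.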

Additional observations from a re-analysis of the deposited data

Results flagged for a closer look

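Of 90 groups of values checked, 5 held 1 array whose gap to its neighbour took up an unusually large part of the group's range, and chance gives this in about 1 of 20 groups. Lama4 was at 1120 in UU replicate 3, well below the other UU arrays (2567.9 to 2982.2); the same array had the highest log2 ratio of 3' over 5' control probe sets, 2.10, and its part in the low signal was not tested. UU replicate 1 stood apart in opposite directions for 2 chains, with Lama2 high at 3416 and Col6a1 low at 17706.8. Col5a2 was low in UC replicate 3, at 15181. The mean level over all tested chains was high in UC replicate 5, at 0.17 above the CC mean on the log2 scale, and this is 1 of the 2 arrays with Xist signal and 1 of the 4 low in epididymal markers.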

How the results depend on the processing

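No chain was called in UC against CC or UU against CC under any of the 30 alternatives, and no called difference changed sign. The calls in UC against UU were less stable. Both chains were lost, leaving 0 called, with no filter (Col5a3 adjusted p = 0.0579), with the mean of all probe sets (0.296), with only the groups compared in the fit (0.0757), and without the 2 arrays with Xist signal, the 4 low in epididymal markers or the 3 of highest 3'/5' ratio. Only Col5a3 was called (1 chain) with quantile normalization, no mean-variance trend, array weights or the epididymal marker level as a covariate. Leaving out 1 array at a time gave 0 to 2 called chains and 0 to 108 called genes in UC against UU, and 0 to 3 genes in UU against CC. The count of genes was 0 without UC replicate 2, UC replicate 4 or UU replicate 1, and Col5a3 was lost without 8 of the 14 arrays and Col6a3 without 13. Called genes in UC against UU numbered 60, against 25 with no filter, 105 with median centring, 9 with only the groups compared, 94 with the replicate block, 3 without the Xist arrays, 1 without the arrays low in epididymal markers, 2 without those of highest 3'/5' ratio and 115 with that ratio as a covariate. In UU against CC, where 0 genes were called, the count was 1 with no filter, without the Xist arrays, without the arrays low in epididymal markers or with the ratio as a covariate, 3 with the dimmest 60% left out, 12 with array weights, 7 with the replicate block and 11 with the epididymal level as a covariate.

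The replicate block rests on numbers that the labels do not describe as pairs, and 3 of 14 arrays correlated best with their own number. In UC against UU it added Col4a2 (0.83, adjusted p = 0.0374) and Col7a1 (-1.22, adjusted p = 0.0416) and lost Col6a3 (0.70, adjusted p = 0.052). Col4a2 was also called with median centring (0.93, adjusted p = 0.0395) and with the 3'/5' ratio added to the model (0.81, adjusted p = 0.0447).

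Medians moved by more than the spread between arrays in these cases. With no filter they were 0.077 for all chains, 0.11 for basement membrane and 0.15 for other chains in UU against CC, and 0.066 for all and -0.22 for basement membrane chains in UC against UU. With the dimmest 60% left out they were -0.45 and -0.43 (all, basement membrane) in UU against CC and 0.35 and 0.35 in UC against UU. Median centring gave 0.35 and 0.19 in UC against UU. The mean of all probe sets gave -0.31 for basement membrane chains in UC against CC, -0.13 for all and -0.14 for fibrillar chains in UU against CC, and 0.075 and -0.087 (all, basement membrane) in UC against UU. Without the arrays low in epididymal markers the fibrillar median was -0.23 in UU against CC, and those of all and basement membrane chains 0.047 and -0.11 in UC against UU. For basement membrane chains in UU against CC it was -0.064 without the arrays of highest 3'/5' ratio and -0.037 with the ratio as a covariate, and in UC against UU -0.088 with the epididymal level as a covariate. Leaving out 1 array at a time, the basement membrane median ran from -0.27 to -0.094 in UC against CC, -0.33 to -0.064 in UU against CC and -0.069 to 0.14 in UC against UU. The cause of these changes was not tested.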
